A study of Mus musculus with 12 samples.

Results

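The collagen VI chains Col6a1, Col6a2 and Col6a3 were described in cultured mouse pancreatic stellate cells (PSCs) with and without the kinase PKN2, after vehicle and after TGF-β1. They were chosen by name, with earlier results of these data known. They are 3 of the 420 genes of a targeted RNA panel for extracellular matrix (ECM) and adhesion genes. Genes were tested if 3 or more libraries reached 10 normalized counts, which held for 238 genes and for all 3 chains. The series holds 12 libraries, 3 (letters A, B and C) in each of 4 groups, which are WT and PKN2 KO PSCs given vehicle, and WT and PKN2 KO PSCs given 5 ng/ml TGF-β1, with RNA taken at 72 h. By the study's methods the PSCs, of C57BL/6 background, came from 1 mouse carrying floxed PKN2 and a tamoxifen-inducible Cre driven from the ubiquitous Rosa26 locus, and were immortalized with SV40 large T antigen, which all 4 groups share. PKN2 KO cells had been treated briefly with 4-hydroxytamoxifen to delete PKN2. No source states that WT cells received its vehicle, so PKN2 loss and the drug exposure cannot be told apart. The methods speak of several dishes per condition and count biological replicates, while the series' design text speaks of 3 lines of each genotype, and no source says what libraries of the same letter share. If all cells came from 1 mouse, p-values measure the spread between cultures of its cells and not between animals.

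Collagen VI is a microfibrillar collagen that anchors cells to the interstitial matrix and borders basement membranes. In its classical form an α1, an α2 and an α3 chain, encoded by Col6a1, Col6a2 and Col6a3, fold into 1 heterotrimer, which pairs into dimers and tetramers before secretion and is then laid down as beaded filaments. The α3 chain is the longest and carries the C-terminal domain from which endotrophin is cleaved. In pancreas and other organs fibroblasts and stellate cells are the main source of the chains, and collagen VI is abundant in desmoplastic tumor stroma. The α5 and α6 chains, from Col6a5 and Col6a6, are thought to replace α3 in some tissues.

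TGF-β1 moved the chains of this trimer in opposite directions. Col6a1 and Col6a2 fell together in both genotypes, by 3.22- and 3.40-fold in WT and by 2.51- and 2.52-fold in PKN2 KO cells, whereas Col6a3 rose by 2.28-fold in WT and 1.81-fold in PKN2 KO cells. The count of Col6a3 relative to Col6a1 therefore rose 7.35-fold in WT and 4.53-fold in PKN2 KO cells. In vehicle, PKN2 KO cells held 2.22-fold more Col6a3 than WT cells, a call that passed in 8 of 12 fits with 1 library left out. It was lost without WT vehicle B, WT vehicle C, PKN2 KO vehicle A or PKN2 KO vehicle C. Leaving out a TGF-β1 library does not change this difference, so those fits test it little. Col6a1 and Col6a2 did not pass the test in vehicle. A difference between the chains was not established. The genotype effect on Col6a3 to Col6a1 and to Col6a2, tested over both treatments together, did not pass (exact permutation adjusted p = 0.1125 and 0.444). In vehicle alone, PKN2 KO libraries lay above WT libraries in both ratios. There, 3 libraries against 3 cannot give an exact permutation p below 0.1, so the test could not pass.

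The 3 genes lie at 2 places in the genome. In the GENCODE annotation of GRCm38, Col6a1 (ENSMUSG00000001119, chr10:76708792-76726168) and Col6a2 (ENSMUSG00000020241, chr10:76595762-76623630) are neighbors on the minus strand of chromosome 10, 85161 bases apart. RefSeq lists 2 lncRNA genes and 0 protein-coding genes between them. Col6a3 (ENSMUSG00000048126, chr1:90765923-90843971) is on the minus strand of chromosome 1. Because Col6a1 and Col6a2 moved together and Col6a3 did not, the sequence before each gene's outermost annotated start is shown, from RefSeq on GRCm38.p6 and written 5′ to 3′ on the gene's own strand. Capitals mark CAGAC or its reverse complement GTCTG, the short SMAD box that SMAD3 and SMAD4 can bind. The 3 stretches are chr10:76726169-76726294 for Col6a1, chr10:76623631-76623880 for Col6a2 and chr1:90843972-90844221 for Col6a3.
Col6a1: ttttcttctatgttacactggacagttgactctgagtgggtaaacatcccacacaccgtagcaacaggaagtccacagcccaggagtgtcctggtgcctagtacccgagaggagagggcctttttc
Col6a2: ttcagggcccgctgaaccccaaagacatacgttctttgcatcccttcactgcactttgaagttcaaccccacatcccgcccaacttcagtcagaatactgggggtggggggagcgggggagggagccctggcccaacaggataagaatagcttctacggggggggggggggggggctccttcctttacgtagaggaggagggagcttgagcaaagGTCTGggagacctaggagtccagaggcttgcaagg
Col6a3: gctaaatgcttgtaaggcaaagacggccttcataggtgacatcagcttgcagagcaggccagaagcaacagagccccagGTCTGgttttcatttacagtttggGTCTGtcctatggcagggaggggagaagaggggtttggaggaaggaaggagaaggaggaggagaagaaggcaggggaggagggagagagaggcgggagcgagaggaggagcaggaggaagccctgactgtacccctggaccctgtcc

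The Col6a3 stretch holds 2 SMAD boxes, beginning 171 and 147 bases before the start. The Col6a2 stretch holds 1, beginning 35 bases before the start, and the shorter Col6a1 stretch of 126 bases holds 0. These letters are common, since 49.6% of the 32851 RefSeq promoter windows, each of 250 bases before and 50 after a start, hold CAGAC on either strand. The TEAD motif CATTCC was found in 1 window, 115 bases before a second, downstream start of Col6a2, and 14.7% of all windows hold it. The GC box GGGCGG was found in both Col6a2 windows and in neither of the other chains' windows (35.7% of all windows), and TATAAA in none of the 4 windows (13.6%). The motifs were searched on both strands. Different motifs did not overlap each other in these windows, while 2 of the GC boxes, 15 and 11 bases before the downstream start of Col6a2, overlap one another. A match describes the letters only.

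All 3 chains were well counted, with 2884 to 16099 reads per library for Col6a1, 641 to 3944 for Col6a2 and 3998 to 16956 for Col6a3. Together they took 0.944% to 2.36% of each library's 1074095 to 1473153 panel reads. At the lowest of these counts the counting error was 1.86% for Col6a1, 3.95% for Col6a2 and 1.58% for Col6a3, well below the spread between libraries. The values below are the authors' normalized counts, each library's counts divided by 1 factor. Each gene of a targeted panel has its own primers, so a level can be compared between libraries but not between genes. In bulk RNA, fewer cells making a chain and less of its RNA per cell cannot be told apart. Col6a5 and Col6a6, the other collagen VI chains on the panel, had 0 reads in all 12 libraries, which in the shallowest library allows a share of up to 2.79e-04% of its reads (3 counts).

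The libraries with letter B were the lowest of their group for each of the 3 chains in all 4 groups, and also had the largest factor of their group in all 4 groups. A single factor per library moves all its genes alike, and its part in the low values of B was not tested. The share of panel reads does not use the factor and is given beside the normalized counts. PKN2 itself, and Acta2, Des, Gfap and Vim, which the study used to name the cells, are not genes of the panel and were not analysed here. The summed level of 7 fibroblast or stellate markers was 227010 to 508796 normalized counts per library, nearly all of it from 5 of them, with Dcn (at most 55.1) and Lum (at most 4.93) close to 0. Summed epithelial (2.34 to 60.2), endothelial (7.08 to 38.7) and leukocyte markers (4.30 to 31.8) were near the floor, with Itgal at 0 throughout.

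In WT vehicle cells, Col6a1, the α1 chain, had 13783 normalized counts in library A, 7096 in B and 9916 in C. In PKN2 KO vehicle cells it had 14569, 10753 and 17062. After TGF-β1 it had 4318, 2279 and 2939 in WT and 8766, 3282 and 5878 in PKN2 KO cells. Every TGF-β1 library lay below every vehicle library of its genotype, and PKN2 KO and WT libraries overlapped under both treatments.

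Col6a2, the α2 chain, followed the same order, with 3429, 1774 and 2424 normalized counts in WT vehicle libraries A, B and C and 4580, 2787 and 4002 in PKN2 KO vehicle libraries. After TGF-β1 the counts were 1089, 507 and 675 in WT and 2463, 900.2 and 1439 in PKN2 KO cells. The vehicle and TGF-β1 libraries again did not overlap within a genotype, while the genotypes overlapped within a treatment.

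Col6a3, the α3 chain, had 6132, 3476 and 3942 normalized counts in WT vehicle libraries A, B and C and 11036, 7520 and 11069 in PKN2 KO vehicle libraries. After TGF-β1 it had 13013, 7423 and 10287 in WT and 23193, 13167 and 17719 in PKN2 KO cells. WT vehicle was the lowest group and PKN2 KO with TGF-β1 the highest, with no library of either within the range of another group. PKN2 KO vehicle and WT TGF-β1 libraries, with means of 9875 ± 2039 and 10241 ± 2795 (SD, n = 3), overlapped.

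**Figure D1:**
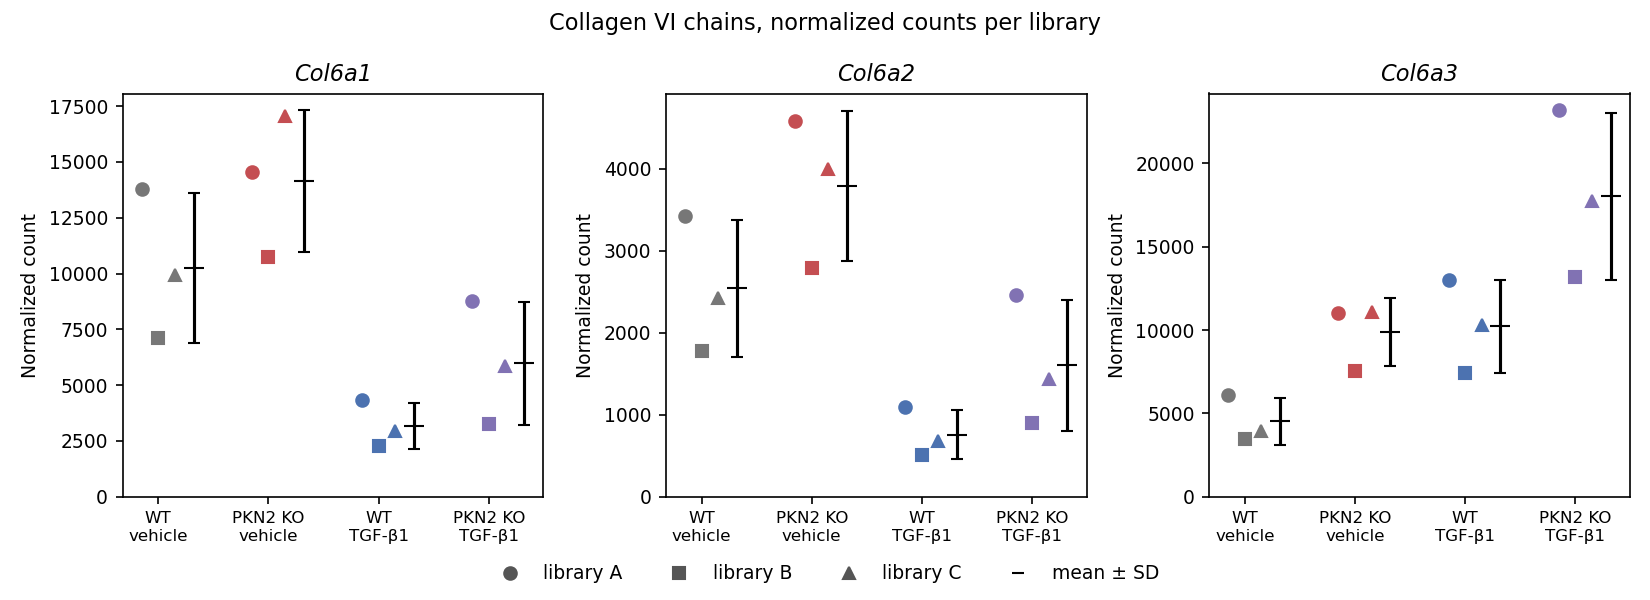
Normalized counts of Col6a1, Col6a2 and Col6a3 (y axes, linear from 0, 1 panel per gene) in the 3 libraries of each group (x axis). Circles, squares and triangles are libraries A, B and C, and the bar is the mean ± SD. Col6a1 and Col6a2 are low after TGF-β1 in both genotypes, Col6a3 is lowest in WT vehicle (3476 to 6132) and highest in PKN2 KO cells with TGF-β1 (13167 to 23193), and each square is the lowest point of its group.

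The first question of the design is what TGF-β1 does to WT cells. By limma on log2(normalized count + 1), with Benjamini-Hochberg adjustment over the 238 genes tested, Col6a1 changed by -1.69 (SE 0.36, adjusted p = 9.82e-04) and Col6a2 by -1.77 (SE 0.37, adjusted p = 8.89e-04) on the log2 scale. Col6a3 changed by 1.19 (SE 0.29, limma adjusted p = 0.0031). All 3 chains passed the threshold of 0.05, in a comparison where 50.8% of all tested genes did, 26.9% as falls and 23.9% as rises. They were not among the largest changes. Col6a2 and Col6a1 ranked 36th and 39th by size among the 64 genes that fell, and Col6a3 40th among the 57 that rose. In each of the 3 chains the groups did not overlap, as was the case for 55.9% of tested genes.

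In PKN2 KO cells TGF-β1 moved the chains the same ways. Col6a1 changed by -1.33 (SE 0.36, limma adjusted p = 0.0065), Col6a2 by -1.33 (SE 0.37, limma adjusted p = 0.0078) and Col6a3 by 0.85 (SE 0.29, limma adjusted p = 0.026) on the log2 scale. All 3 passed the threshold, against 48.7% of tested genes (29% as falls and 19.7% as rises), and their groups did not overlap, as for 52.9% of tested genes. The call of Col6a3 depended on single libraries. Without PKN2 KO vehicle B its change was 0.67, without PKN2 KO TGF-β1 A 0.65 and without PKN2 KO TGF-β1 C 0.85, with limma adjusted p = 0.11, 0.11 and 0.066.

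The interaction, the difference between the 2 responses to TGF-β1, was 0.36 for Col6a1 (95% interval -0.72 to 1.45, limma adjusted p = 0.89), 0.43 for Col6a2 (-0.68 to 1.55, limma adjusted p = 0.85) and -0.34 for Col6a3 (-1.22 to 0.55, limma adjusted p = 0.85). None of the 3 passed, and 3.36% of tested genes did. These intervals are wide enough to hold a difference of about the size of the response of Col6a3 itself. The median change of all tested genes was 0.00 in WT and -0.14 in PKN2 KO cells, and -0.25 and -0.34 when libraries were scaled to their total count. With that scaling Col6a3 changed by 0.94 in WT and 0.66 in PKN2 KO cells (limma adjusted p = 2.30e-05 and 5.22e-04). Col6a1 then changed by -1.94 in WT and -1.52 in PKN2 KO cells, and Col6a2 by -2.02 and -1.53. Markers of other cells moved with TGF-β1 at low levels, the endothelial ones without overlap in WT cells only. Summed epithelial markers were 2.34 to 20.5 normalized counts in vehicle and 24.8 to 60.2 after TGF-β1, mostly Lamb3. Leukocyte markers were 16.3 to 31.8 and 4.30 to 9.76. Endothelial markers were 7.08 to 17.6 and 32.7 to 38.7 in WT cells. In PKN2 KO cells they overlapped, at 11.7 to 22.6 and 17.8 to 23.2. The part of these markers in the changes of the chains was not tested.

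**Figure D2:**
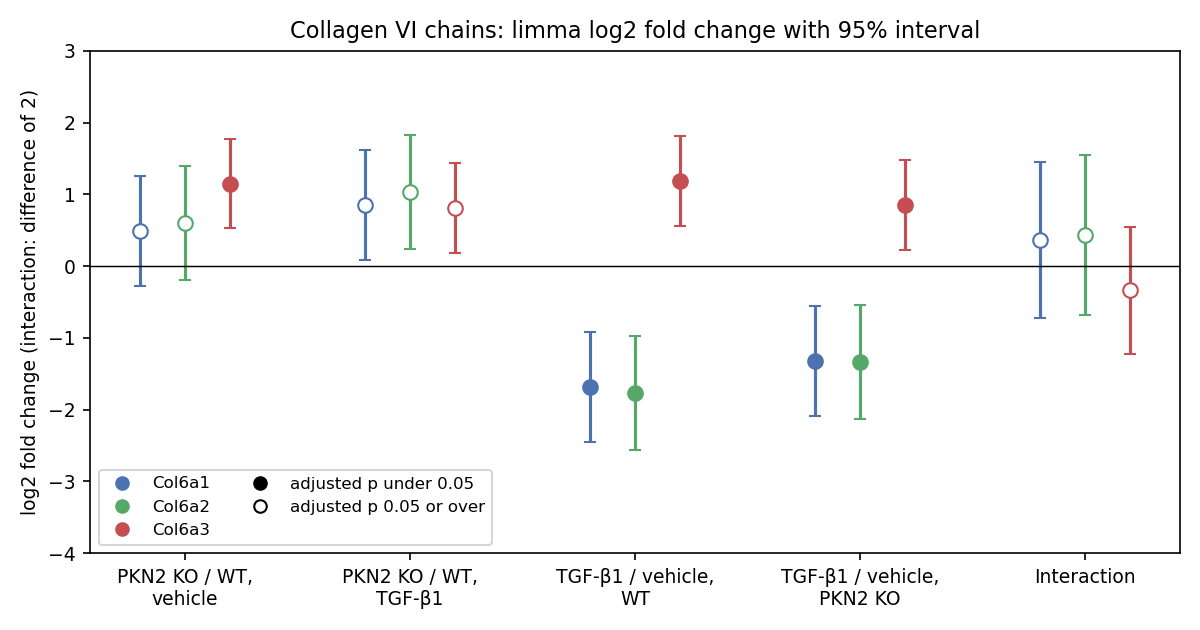
Log2 fold changes (y axis) of the 3 chains with their 95% intervals (limma, n = 3 libraries per group) in 4 comparisons and their interaction (x axis). Filled points have an adjusted p under 0.05. Col6a1 and Col6a2 lie at -1.77 to -1.33 for TGF-β1 against vehicle and Col6a3 at 0.85 to 1.19, and all 6 points for PKN2 KO against WT lie above 0, 1 of them filled.

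The second question is what PKN2 loss does, first in vehicle. Col6a3 was 1.15 higher on the log2 scale in PKN2 KO than in WT cells (SE 0.29, 95% interval 0.52 to 1.78, limma adjusted p = 0.016), with all 3 PKN2 KO libraries above all 3 WT libraries. It ranked 17th by size among 26 genes that were higher. Of all tested genes 13.9% passed, 10.9% as higher, and 32.4% had groups that did not overlap. Without WT vehicle B, WT vehicle C, PKN2 KO vehicle A or PKN2 KO vehicle C the difference was 0.98, 1.07, 1.06 and 1.06, with limma adjusted p = 0.056, 0.077, 0.080 and 0.081. Col6a1 differed by 0.49 (SE 0.36, interval -0.28 to 1.25, limma adjusted p = 0.44) and Col6a2 by 0.60 (SE 0.37, interval -0.19 to 1.39, limma adjusted p = 0.36). The groups of both overlapped, and their intervals hold a more than 2-fold increase as well as no change. The median difference of all genes was 0.21, and 0.03 with TMM scaling.

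After TGF-β1 all 3 chains had higher means in PKN2 KO than in WT cells and none passed the threshold, which 15.1% of tested genes did. The differences were 0.85 for Col6a1 (interval 0.08 to 1.62, limma adjusted p = 0.13), 1.03 for Col6a2 (0.24 to 1.82, limma adjusted p = 0.078) and 0.81 for Col6a3 (0.19 to 1.44, limma adjusted p = 0.078). Col6a3 libraries did not overlap between the genotypes, as for 28.2% of tested genes, and those of Col6a1 and Col6a2 did. These calls turned with the scaling. With libraries scaled to their total count the differences were 0.84, 1.02 and 0.81, with limma adjusted p = 0.0053, 0.0038 and 4.0e-04, and 27.3% of genes passed. They also turned with 1 library, since without PKN2 KO TGF-β1 B all 3 passed (1.23, 1.39 and 1.02, limma adjusted p = 0.022, 0.018 and 0.030). Without WT TGF-β1 A the differences of Col6a2 (1.33) and Col6a3 (1.01) passed, with limma adjusted p = 0.026 and 0.046.

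As a share of each library's panel reads, the letters lay closer together. Col6a3 took 0.345% to 0.484% of reads in WT vehicle libraries, 0.797% to 0.862% in PKN2 KO vehicle libraries, 0.686% to 0.814% in WT TGF-β1 libraries and 1.27% to 1.35% in PKN2 KO TGF-β1 libraries. Col6a1 took 0.713% to 1.09% and 1.14% to 1.26% in WT and PKN2 KO cells with vehicle, and 0.210% to 0.270% and 0.316% to 0.510% after TGF-β1. On this scale, every PKN2 KO library lay above every WT library of the same treatment for these chains and for Col6a2. Groups that did not overlap on this scale were found for 35.7% of tested genes in vehicle and 40.8% after TGF-β1.

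**Figure D3:**
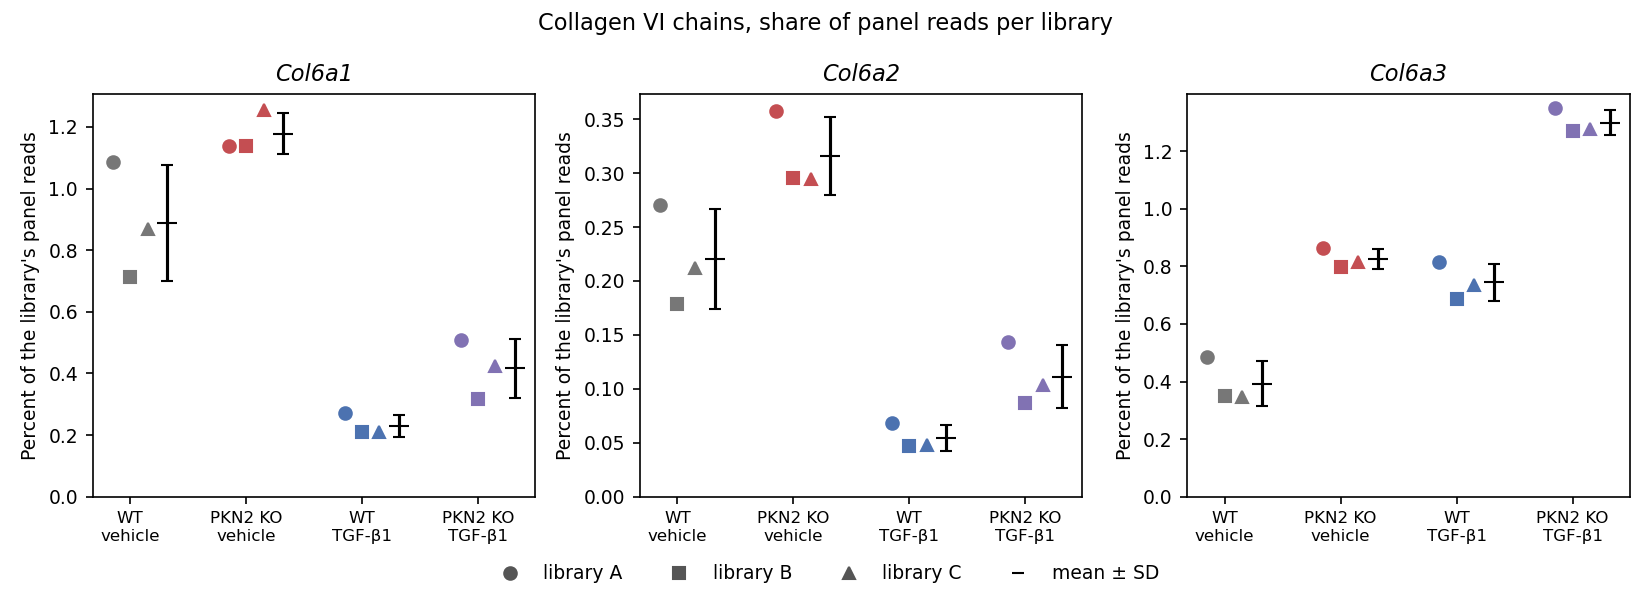
Percent of a library's panel reads (y axes, linear from 0) that came from each chain, by group (x axis). Circles, squares and triangles are libraries A, B and C, and the bar is the mean ± SD. PKN2 KO points lie above the WT points of the same treatment for all 3 chains, as for Col6a1 in vehicle, where the highest WT share is 1.09% and the lowest PKN2 KO share 1.14%.

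Ratios between the chains within a library do not depend on any scaling factor. They carry the unknown efficiency of each gene's primers, so their size is not a molar ratio, and only changes of a ratio between libraries can be read. Col6a1 to Col6a2 was 4.02, 4.001 and 4.09 in WT vehicle libraries A, B and C, 3.18, 3.86 and 4.26 in PKN2 KO vehicle, 3.96, 4.50 and 4.35 in WT TGF-β1, and 3.56, 3.65 and 4.08 in PKN2 KO TGF-β1 libraries. The ratio of these neighboring genes thus stayed between 3.18 and 4.50 while their counts ranged widely, and groups overlapped in every comparison. TGF-β1 against vehicle differed by 0.04 in mean log2 ratio (exact permutation test within genotypes, two-sided, p = 0.565, adjusted p = 0.565), and PKN2 KO against WT by -0.15 (exact permutation test within treatments, p = 0.075, adjusted p = 0.1125). The latter passed without PKN2 KO vehicle C (-0.19, adjusted p = 0.02, exact permutation test). The adjusted values cover 3 ratios and 2 effects, 6 tests in all.

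Col6a3 to Col6a1 was 0.445, 0.490 and 0.398 in WT vehicle libraries A, B and C and 0.758, 0.699 and 0.649 in PKN2 KO vehicle libraries. After TGF-β1 it was 3.01, 3.26 and 3.50 in WT and 2.65, 4.01 and 3.01 in PKN2 KO cells. All TGF-β1 libraries lay above all vehicle libraries, and PKN2 KO libraries lay above WT libraries in vehicle but among them after TGF-β1. The TGF-β1 effect was 2.53 in mean log2 ratio over both genotypes, 5.77-fold, with p = 0.005 in the exact permutation test within genotypes, the smallest that its 400 arrangements allow, and adjusted p = 0.015. The genotype effect over both treatments was 0.31 (exact permutation p = 0.065, adjusted p = 0.1125), made of 0.66 in vehicle and -0.03 after TGF-β1. Within 1 treatment 3 libraries against 3 cannot give an exact permutation p below 0.1, which is the value in vehicle.

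Col6a3 to Col6a2 was 1.79, 1.96 and 1.63 in WT vehicle libraries A, B and C and 2.41, 2.70 and 2.77 in PKN2 KO vehicle libraries. After TGF-β1 it was 11.9, 14.7 and 15.2 in WT and 9.41, 14.6 and 12.3 in PKN2 KO cells. The order of the groups was that of Col6a3 to Col6a1, again with no overlap between the treatments. The TGF-β1 effect was 2.57 in mean log2 ratio, 5.94-fold (exact permutation p = 0.005, adjusted p = 0.015), with 7.76-fold in WT and 4.55-fold in PKN2 KO cells. The genotype effect was 0.17 (exact permutation p = 0.37, adjusted p = 0.444), with 0.55 in vehicle and -0.22 after TGF-β1. The response of the 2 ratios with Col6a3 was smaller in PKN2 KO than in WT cells by 0.70 (Col6a1) and 0.77 (Col6a2) on the log2 scale, a difference that was not tested.

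**Figure D4:**
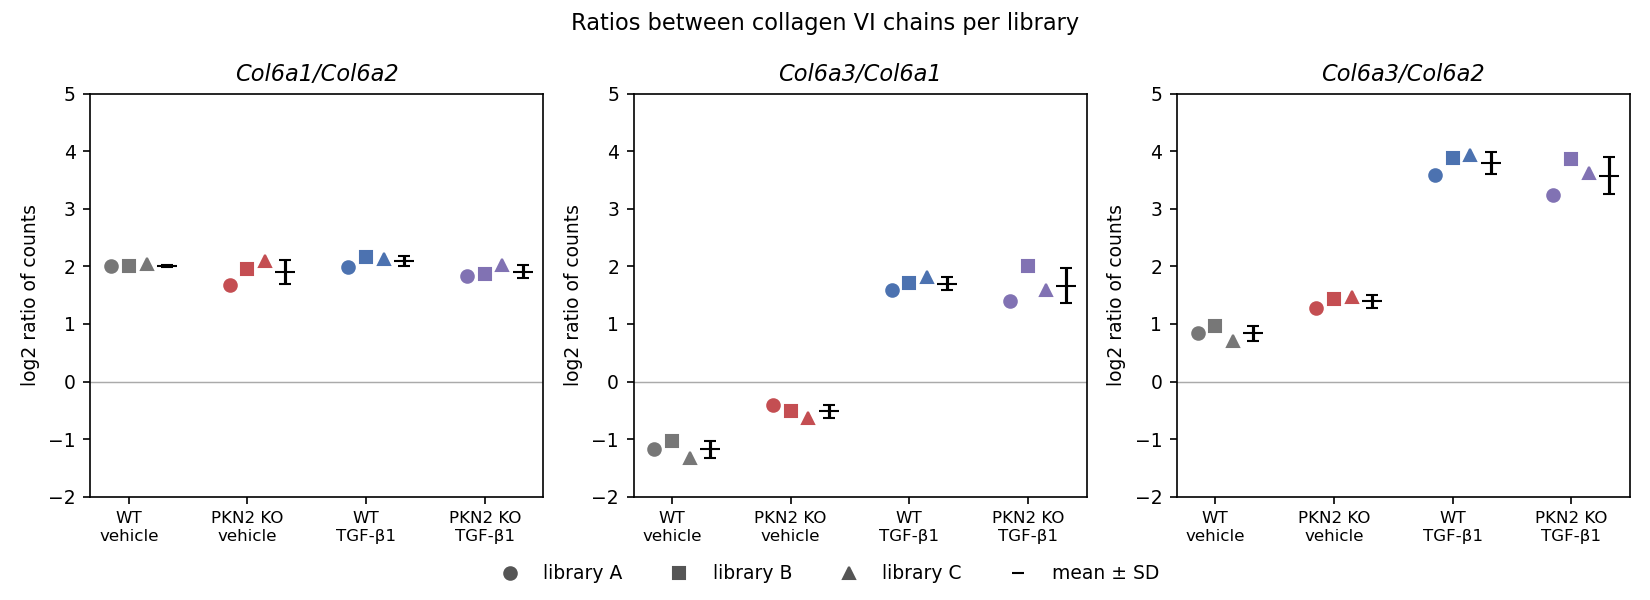
Log2 ratio of counts (y axes, the same range in each panel) of Col6a1 to Col6a2, Col6a3 to Col6a1 and Col6a3 to Col6a2 in the 3 libraries of each group (x axis). Circles, squares and triangles are libraries A, B and C, and the bar is the mean ± SD. The first ratio stays between 3.18 and 4.50 (linear scale) across groups, and the other two step up after TGF-β1 (5.77- and 5.94-fold), with PKN2 KO points above WT points in vehicle and among them after TGF-β1.

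Over the 12 libraries, Pearson's r of log2(normalized count + 1) was 0.99 between Col6a1 and Col6a2, -0.14 between Col6a1 and Col6a3 and -0.09 between Col6a2 and Col6a3, as a description over points that share groups and factors. Apart from Col6a2, the genes most like Col6a1 were Spp1, the secreted phosphoprotein osteopontin (0.99), and Adamts2, a procollagen N-proteinase (0.98). Apart from Col6a1, those most like Col6a2 were Spp1 (0.98) and Adgre5, the adhesion receptor CD97 (0.97). Those most like Col6a3 were L1cam, a neural cell adhesion molecule (0.96), Megf10, an engulfment receptor (0.96), and Thbs2, the matricellular protein thrombospondin 2 (0.95).

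All 6 matrix partners of collagen VI had a positive difference between PKN2 KO and WT cells under both treatments. The median of all tested genes was also positive (0.21 in vehicle and 0.13 after TGF-β1), and the proteoglycan Bgn in vehicle (0.12) lay below it. How many of all tested genes were positive is not given here. Of the 6 partners, 2 passed under each treatment, beside 13.9% of all tested genes in vehicle and 15.1% after TGF-β1. They were the basement membrane chains Col4a1 (0.94 in vehicle and 0.99 after TGF-β1, limma adjusted p = 0.0038 and 0.0016) and Col4a2 (0.95 and 0.96, limma adjusted p = 0.038 and 0.032). This list and the lists below were chosen with earlier results of these data known, so their values are a description. The median difference of the 6 was 0.80 in vehicle, beside 0.21 over all tested genes. After TGF-β1 it was 0.67, or 0.33 with Dcn raised to a floor of 3 counts per library in WT, beside 0.13. TGF-β1 left Col4a1 and Col4a2 within 0.05 on the log2 scale of their vehicle level in both genotypes, and neither passed. The only partner called for TGF-β1 was Dcn, the proteoglycan decorin, which was lower after TGF-β1 in WT (limma adjusted p = 2.88e-04) and in PKN2 KO cells (limma adjusted p = 0.0012). It had between 6.08 and 55.1 normalized counts in vehicle libraries, 1 read in each WT TGF-β1 library, and between 2.74 and 4.88 normalized counts in PKN2 KO TGF-β1 libraries. The proteoglycans Bgn and Hspg2 and the fibronectin gene Fn1 did not pass in these comparisons. The median of the 6 for TGF-β1 was -0.04 in WT and -0.11 in PKN2 KO cells.

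Of 5 collagen-binding integrin chains, 3 passed for TGF-β1 in each genotype, beside 50.8% of all tested genes in WT and 48.7% in PKN2 KO cells. Itgb1, the common β1 subunit, rose with TGF-β1 by 1.19 in WT and 1.08 in PKN2 KO cells (limma adjusted p = 0.0040 and 0.0085). Itga2, the α2 subunit, had between 1.18 and 6.36 normalized counts in vehicle and between 26.9 and 53.1 after TGF-β1, and rose in both genotypes (limma adjusted p = 3.37e-05 and 6.86e-05). Itga11, the α11 subunit of fibroblasts, had between 75.7 and 166 normalized counts in vehicle and fell with TGF-β1 in both genotypes (limma adjusted p = 6.30e-06 and 2.62e-08), to between 5.53 and 9.44 in WT and to at most 2.58, or 3 reads, in PKN2 KO cells. It was also the only chain of the 5 called for PKN2 KO against WT, lower after TGF-β1 (limma adjusted p = 0.0028), and for the interaction (limma adjusted p = 0.026). Both calls rest on PKN2 KO TGF-β1 libraries of at most 3 reads, where the fold depends on the pseudocount. They were not tested with Itga11 raised to a floor. The median of the 5 was 0.06 between PKN2 KO and WT cells with vehicle, -0.05 between them with TGF-β1, -0.15 for TGF-β1 in WT and 0.22 in PKN2 KO cells. Itga1 and Itga10 did not pass in any comparison.

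Of 6 genes for chain modification and folding, 5 were tested and Plod1 fell below the filter. For TGF-β1, 2 of the 5 passed in WT and 1 in PKN2 KO cells, beside 50.8% and 48.7% of all tested genes, and 5 genes are too few to tell these shares apart. Plod2, a lysyl hydroxylase, rose with TGF-β1 by 1.68 in WT and 1.83 in PKN2 KO cells (limma adjusted p = 1.11e-05 and 5.42e-06), and P3h1, a prolyl 3-hydroxylase, rose by 0.72 in WT (limma adjusted p = 0.0081) with 0.40 in PKN2 KO cells (limma adjusted p = 0.14). The collagen chaperone Serpinh1, P4ha1 and Plod3 did not pass, and none of the 5 passed for PKN2 KO against WT. Their median was 0.33 and 0.40 for TGF-β1 in WT and PKN2 KO cells, and -0.07 and 0.00 for PKN2 KO against WT cells, with vehicle and with TGF-β1.

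Among the 38 other collagen chains of the panel, 24 were tested. With TGF-β1, 7 rose and 5 fell in WT and 6 rose and 5 fell in PKN2 KO cells, with medians of 0.17 and -0.02, so 12 and 11 of the 24 passed, close to the 50.8% and 48.7% of all tested genes. For PKN2 KO against WT, 3 were higher and 2 lower in vehicle and likewise after TGF-β1, with medians of 0.17 and 0.00. The most counted were the fibrillar chains Col1a1, Col1a2 and Col5a2. Col1a1 and Col1a2 did not pass for TGF-β1 (0.44 and 0.23 in WT), and Col5a2 rose by 0.92 in WT and 0.99 in PKN2 KO cells (limma adjusted p = 0.0046 and 0.0031).

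**Figure D5:**
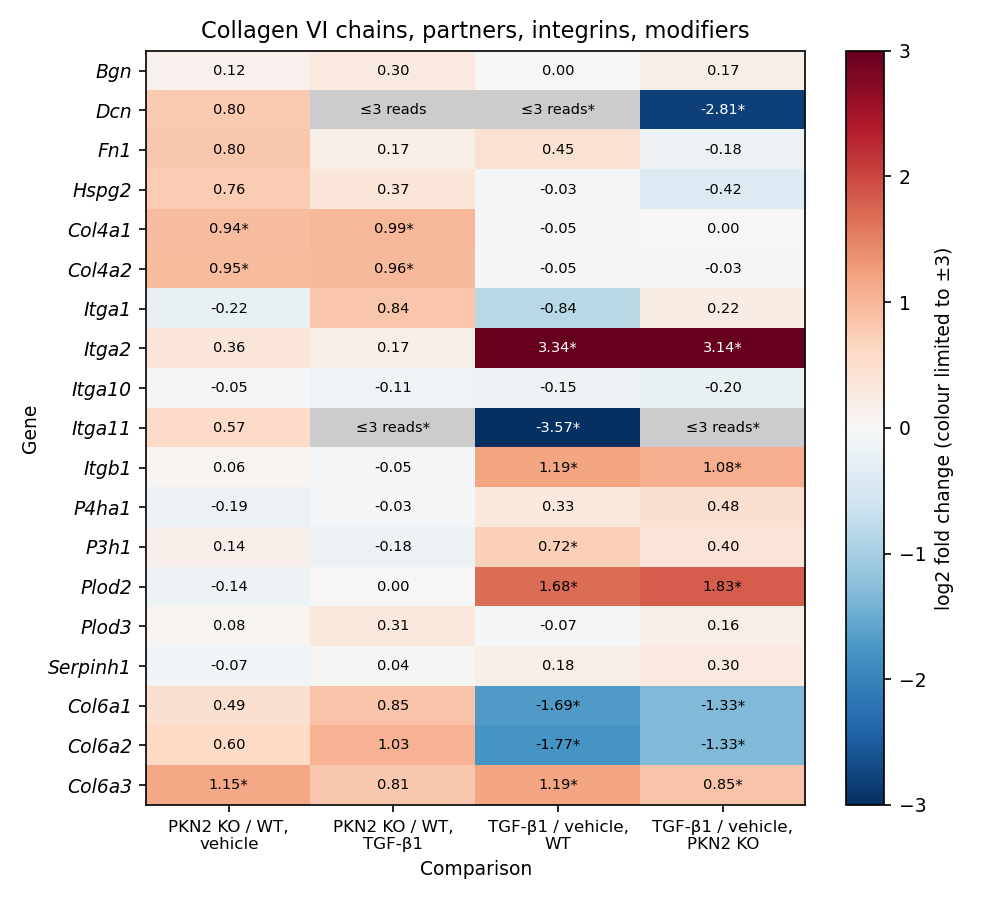
Log2 fold changes (numbers and color, limited to ±3) of the tested matrix partners, collagen-binding integrin chains, modification genes and collagen VI chains (rows) in 4 comparisons (columns). Stars mark a limma adjusted p under 0.05, and grey cells a group with at most 3 reads in every library, whose fold depends on the pseudocount. Col6a1 and Col6a2 are blue and Col6a3 red for TGF-β1, and Col4a1 and Col4a2 differ by genotype but not by TGF-β1.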

How the data were processed

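RNA of 12 PSC libraries was measured with a targeted ECM panel. The authors deposited raw counts and 2 tables of normalized counts, a signal in which all counts of a library share 1 divisor. The vehicle libraries are in 1 table and the TGF-β1 libraries in the other, so each TGF-β1 comparison spans both tables. The divisor was 0.847 for both WT vehicle A and WT TGF-β1 A, with 1074095 and 1354223 reads. Its part in the TGF-β1 changes was not tested beyond the other scalings. Per the submitters' processing notes STAR, mm10 and DESeq2 1.32 were used. The deposited raw counts name 1 group in 2 sets of columns, so those 6 columns were not used, and the normalized tables served for all 12 libraries. Reads recovered from them were whole within 0.01 for 100% of values and equal to the 6 uniquely named raw columns for all 420 genes.

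Values were fitted with limma 3.58.1 (trend and robust) in R 4.3.3 on log2(normalized count + 1), with 4 group means, genes at 10 or more in at least 3 libraries, and Benjamini-Hochberg adjustment over 238 genes at 0.05. Chain ratios were tested by exact permutation within strata. Alternatives were TMM, median-of-ratios and total count scaling, edgeR 4.0.16 and DESeq2 1.42.0 on the recovered reads, other filters and pseudocounts (0.5 and 5), no variance trend, each library left out, and the letter as a block. The scripts were checked on simulated data. Genes named by rule were the chains, Col6a5 and Col6a6, members of 3 lists past the threshold (with none past it, up to 3 by mean count), the 3 most counted other collagens and the 3 genes most correlated with each chain. List members that did not pass, markers, Col5a1 and Col5a3 were named in addition, after their values were seen. The members and lists were chosen with earlier results of these data known. Gene coordinates are from GENCODE M21 (GRCm38). The reads cover 1074095 to 1473153 counts per library, and intervals on reads cover counting error only (whether molecular identifiers were counted is not given in the sources used here).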

Additional observations from a re-analysis of the deposited data

How the results depend on the processing

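Of 207 tested alternative values for the 3 chains, their ratios and their interactions, 184 kept their direction and their side of the threshold, 21 gained a call and 2 lost one, not counting the settings that leave out 1 library. The 6 ratios of summed counts, which have no test, moved by less than the spread between libraries. The falls of Col6a1 and Col6a2 and the rise of Col6a3 with TGF-β1 passed in every alternative run except, for Col6a3 in PKN2 KO cells, 3 of the 12 that leave out a library.

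PKN2 KO against WT after TGF-β1 depended on the processing. Col6a1 passed with total count scaling (0.84) and without the 4 libraries of letter B, a setting chosen after seeing the data (1.01). Col6a2 passed with TMM scaling (0.92), total count scaling (1.02), DESeq2 (1.08) and without letter B (1.13). Col6a3 passed with TMM (0.70), median-of-ratios (0.69) and total count scaling (0.81), DESeq2 (0.82) and without letter B (0.81). The cause was not tested. Genes called in this comparison were 36, and 56, 55 and 65 with TMM, median-of-ratios and total count scaling. Interactions called were 8, 4 without a variance trend, 1 without letter B, and 0 to 11 with 1 library left out. In vehicle, 33 genes were called, and 18 to 38 with 1 library left out.

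The letters are shared by the groups, and no source says that they pair the libraries. Deviations from the group means correlated by 0.39 on average over 18 same-letter pairs, from -0.23 to 0.70, with 13 pairs over 0.1, and 9 of 12 libraries correlated best with their own letter. With the letter as a replicate block the differences are the same and more pass: Col6a1 0.49 in vehicle and 0.85 after TGF-β1, Col6a2 0.60, 1.03 and an interaction of 0.43, and Col6a3 0.81 after TGF-β1. With the replicate block and no variance trend the same held except for Col6a1 in vehicle and the interaction of Col6a2. The prior degrees of freedom of this limma fit were infinite for 197 of 238 genes. Genes called with the block were 87 in vehicle, 101 after TGF-β1 and 42 interactions, and 71, 90 and 17 with no trend. For the ratios, the TGF-β1 effects of 2.53 and 2.57 had an adjusted exact p of 0.094 within letters, where 64 sign flips cannot give a p below 0.03125.

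With 1 library left out, PKN2 KO against WT in vehicle ranged from 0.25 to 0.73 for Col6a1, 0.36 to 0.84 for Col6a2 and 0.98 to 1.39 for Col6a3, and after TGF-β1 from 0.52 to 1.23, 0.66 to 1.39 and 0.60 to 1.02. TGF-β1 in WT ranged from -1.93 to -1.45, -2.07 to -1.51 and 0.996 to 1.43, and in PKN2 KO cells from -1.66 to -0.95, -1.70 to -0.98 and 0.65 to 1.06. Interactions ranged from 0.03 to 0.74, 0.06 to 0.79 and -0.58 to -0.13. Log2 ratios ranged, for genotype and TGF-β1, from -0.19 to -0.088 and -0.016 to 0.090 (Col6a1 to Col6a2, the negative value without PKN2 KO vehicle A), 0.23 to 0.38 and 2.44 to 2.59 (Col6a3 to Col6a1), and 0.09 to 0.25 and 2.50 to 2.66 (Col6a3 to Col6a2).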

Other observations

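Chains of other collagen heterotrimers were set beside those of collagen VI, a comparison chosen after the values were seen and given without a test. The ratio of Col1a1 to Col1a2, the chains of collagen I, changed with TGF-β1 by 0.21 on the log2 scale in both WT and PKN2 KO cells, with overlapping groups. The ratio of Col4a2 to Col4a1, the chains of the common collagen IV network, changed by 0.00 in WT and -0.04 in PKN2 KO cells. The ratio of Col5a2 to Col5a1, chains of collagen V, was 1.63 to 1.97 in WT vehicle, 1.30 to 1.81 in PKN2 KO vehicle, 1.94 to 2.40 in WT TGF-β1 and 2.51 to 3.02 in PKN2 KO TGF-β1 libraries. Its change was 0.27 in WT, with overlapping groups, and 0.80 in PKN2 KO cells, without overlap. Col5a3, another collagen V chain, was not set in a ratio. On the log2 scale it rose with TGF-β1 by 2.50 in WT and 2.20 in PKN2 KO cells, beside 0.65 and 0.18 for Col5a1. Large differences between chains of 1 collagen type were thus not limited to collagen VI. The changes of Col6a3 to Col6a1 were 2.88 in WT and 2.18 in PKN2 KO cells.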
